A study of Rattus norvegicus with 80 samples.

Results

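The genes described here are 40 genes that are known for their use in the endothelium, the cell layer that lines blood and lymph vessels, and each was taken by its symbol in the annotation of the arrays. The arrays carried 38 of the 40 on 48 probes, among 15924 genes with a symbol, and probes of 1 gene were averaged. Mmrn2 and Ackr1 had no named probe.

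The lung is rich in endothelium, because each alveolus is wrapped in a capillary net across which gas is exchanged. Lung endothelial cells hold together through junction proteins, take survival and growth signals through the VEGF, angiopoietin, apelin and BMP receptors, and keep their identity through ETS and SOX transcription factors. When inflamed, they put selectins and immunoglobulin-like adhesion molecules on their surface, which capture leukocytes from the blood.

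RNA came from the right lungs of male Sprague-Dawley rats (Crl:CD[SD], an outbred stock bought at 7 weeks of age). They had received through the trachea, in a single instillation, 0.5, 1.0 or 2.0 mg/kg of 1 of 3 cellulose nanofibril preparations, called CNF1, CNF2 and CNF3, or of multi-walled carbon nanotubes (MWCNT), or the vehicle of that material, which was distilled water with preservatives. The lungs were washed free of blood with saline and taken 1, 3, 7, 30 or 90 days later. Each of the 80 combinations of material, dose and day had 1 array and no replicate. Groups held 4 rats in the protocol, and whether an array holds RNA of 1 of them or of a pool is not said. The protocol text also gives 1 mg/kg as the dose, whereas doses here are those in the names of the arrays.

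All values are on a log2 scale and had been centred probe by probe by the authors, so 0 is near a probe's middle value over the 80 arrays, genes cannot be ranked by level, and no gene can be placed above or below background. An effect is the mean over the 5 days of the exposed array minus the vehicle array of the same material and day. It was tested with limma on all genes in 1 fit of 80 arrays (48 residual degrees of freedom), and a gene was called at a Benjamini-Hochberg adjusted p under 0.05 over 15924 genes. The 5 days stand in for replicates, so each p measures an effect against the scatter of single arrays around that mean. The 15 control spots without rat sequence (spike-in and negative controls) had a median effect of 0.62, 0.42, 0.37 and 0.17 at 2.0 mg/kg of CNF1, CNF2, CNF3 and MWCNT. The spots were fitted apart from the genes, with p adjusted over the 15 spots. At that dose 0 spots were called in limma (3, 7, 0 and 0 at an unadjusted p under 0.05). At 0.5 and 1.0 mg/kg 6 to 14 of the 15 spots were called in each material, so the results lead with 2.0 mg/kg.

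At 2.0 mg/kg, 18 to 24 of the 38 endothelial genes were called lower than in vehicle lungs after each material, and at most 1 was called higher. After CNF1, 24 of the 38 fell and 0 rose, where 19.8% of all genes were called lower and 21.8% higher. After CNF2, 24 fell and 1 rose (15.7% of all genes lower, 15.6% higher). After CNF3, 18 fell and 0 rose (9.99% lower, 9.75% higher), and after MWCNT 24 fell and 0 rose (9.14% lower, 12.7% higher). The 38 genes had a median effect of -0.46 after CNF1, -0.34 after CNF2, -0.27 after CNF3 and -0.37 after MWCNT, beside medians over all genes of 0.003, 0.037, 0.025 and 0.009. In whole lung, fewer endothelial cells, less RNA per cell and a larger share of RNA from other cells cannot be told apart. Without the day 1 arrays 9 members fell after CNF3, and without day 30 11. Without the day 30 arrays 15 members fell after MWCNT.

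The 13 genes called lower after all 4 materials were Emcn, Icam2, Plvap, Kdr, Tie1, Eng, Sox18, Ramp2, Aplnr, Apln, Ednrb, Car4 and Lyve1, where 4.35% of all genes met the same rule. Under the alternative settings 6 to 20 members met it, with 7 without day 1, 6 without day 7 and 8 without day 30. The 6 that did so with the 2.0 mg/kg and vehicle arrays fitted alone were Plvap, Eng, Tie1, Aplnr, Apln and Ednrb. Another 12 genes were called lower after 3 materials (4.45% of all genes), Sox7 and Selp after 1 (10.2% of all genes), and 11 after none (74.2% of all genes; Pecam1, Cdh5, Esam, S1pr1, Prox1, Calcrl, Edn1, Nos3, Vwf, Sele and Vcam1). The plot of effects by gene and material shows that the uncalled genes lie on both sides of 0 and that several have wide errors.

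**Figure D1:**
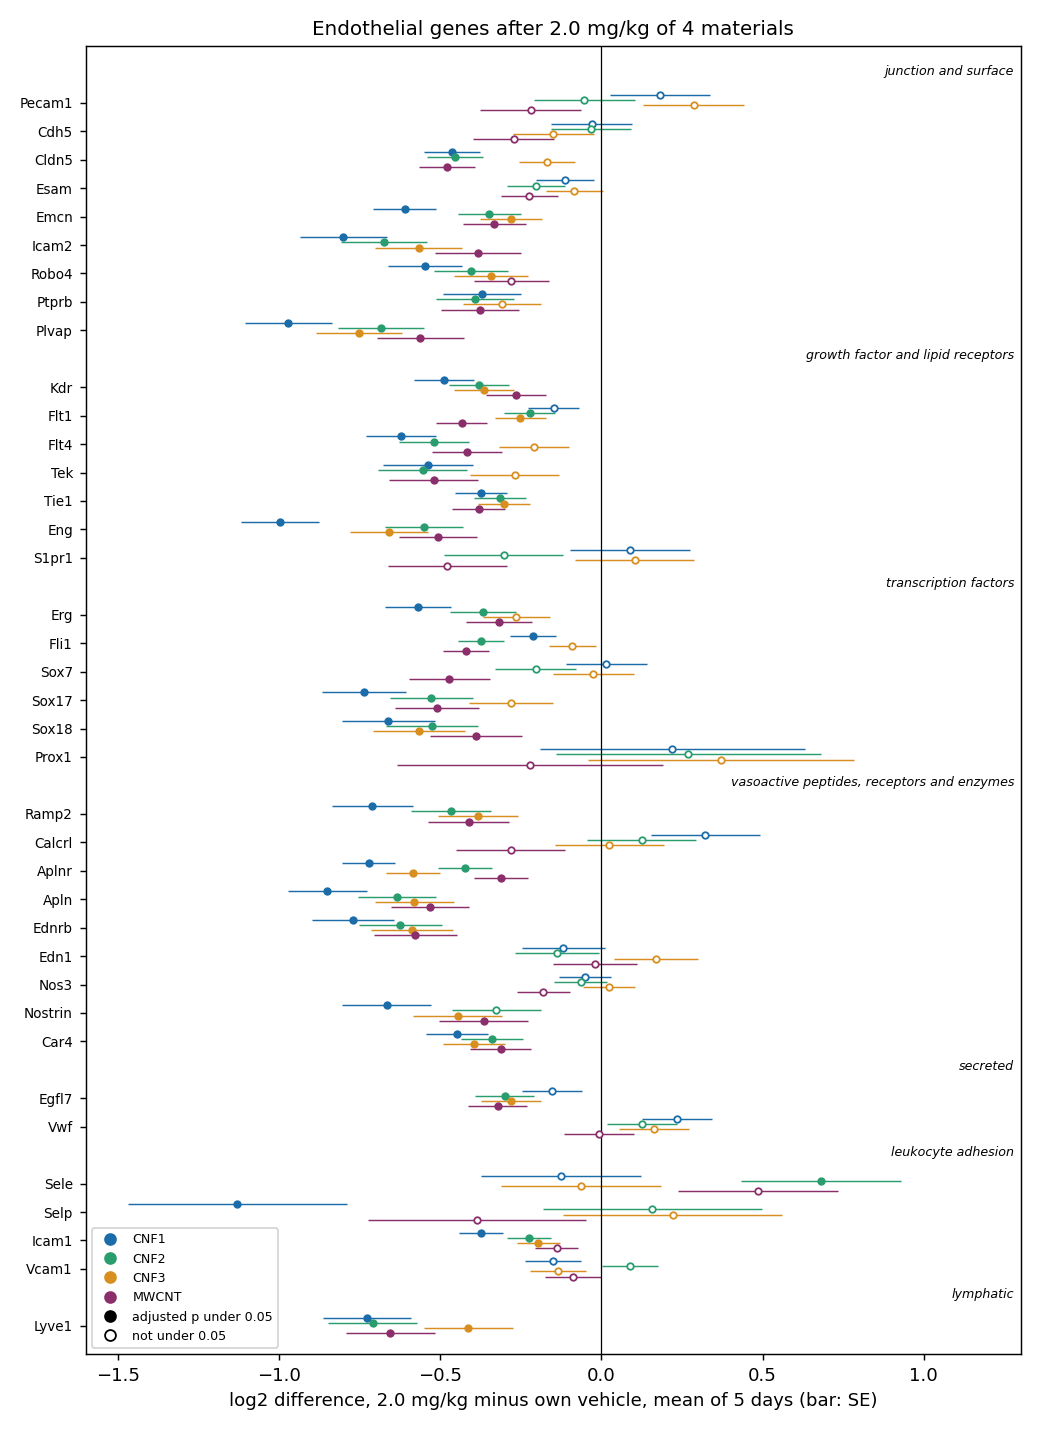
Effect of 2.0 mg/kg on each of 38 endothelial genes, as the mean log2 difference from the own vehicle array over 5 days (x axis), grouped by role down the page, with bars for 1 SE. Filled points were called in limma; most lie left of 0 for all 4 materials, while Vwf, Pecam1, Calcrl, Prox1, Sele and Vcam1 lie near or on either side of it.

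The promoters of the members were searched for short motifs of ETS, NF-kappaB, KLF and SOX factors on both strands. The search covered the 250 bases before the start used in RefSeq promoter windows on rat build GRCr8. For many members, among them Eng, Kdr and Apln, that start is not the edge of the RefSeq gene. A gene with several windows was counted where any of them held the letters. A promoter was at hand for 22 of the 38 members and for 27457 genes. The ETS letters AGGAAG were in 14 of 22 members (63.6%) and 31.3% of all genes, and the ETS letters CCGGAA in 2 (9.1%) and 14.1%, and 16 members (72.7%) held either, beside 40.8% of all genes. The NF-kappaB letters GGGANNNNCC were in 5 members (22.7%, all genes 17.9%), the KLF letters CCACCC in 10 (45.5%, 28%) and the SOX letters ACAAAG in 4 (18.2%, 17.2%). Overlapping matches of different motifs were each counted. A match is a run of letters, not a shown binding site.

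Plvap and Lyve1 are shown as members called lower after all 4 materials that hold AGGAAG, Ednrb as one that was called alike without either ETS motif, and Vcam1 as a member that was not called and holds the NF-kappaB letters, with matches of all 5 motifs in capitals on either strand. The windows are chr16:18231280-18231529, chr1:174410978-174411227, chr15:87086766-87087015 and chr2:206742784-206743033, all genes on the minus strand and printed 5′ to 3′ along the gene. Plvap holds AGGAAG from 98 and from 81 bases before the start and the KLF letters, on the opposite strand, from 144 bases. Lyve1 holds AGGAAG from 43 bases, Vcam1 the NF-kappaB letters from 93 bases, and Ednrb none of the 5 motifs.
Plvap: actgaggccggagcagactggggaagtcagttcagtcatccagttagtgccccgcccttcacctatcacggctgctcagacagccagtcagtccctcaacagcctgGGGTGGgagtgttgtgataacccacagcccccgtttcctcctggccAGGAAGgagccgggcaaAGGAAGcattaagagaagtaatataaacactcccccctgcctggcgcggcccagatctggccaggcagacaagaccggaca
Lyve1: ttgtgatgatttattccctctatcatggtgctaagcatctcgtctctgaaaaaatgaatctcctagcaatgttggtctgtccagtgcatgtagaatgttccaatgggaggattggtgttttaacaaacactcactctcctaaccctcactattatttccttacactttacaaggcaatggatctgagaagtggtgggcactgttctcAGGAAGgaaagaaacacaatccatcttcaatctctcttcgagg
Ednrb: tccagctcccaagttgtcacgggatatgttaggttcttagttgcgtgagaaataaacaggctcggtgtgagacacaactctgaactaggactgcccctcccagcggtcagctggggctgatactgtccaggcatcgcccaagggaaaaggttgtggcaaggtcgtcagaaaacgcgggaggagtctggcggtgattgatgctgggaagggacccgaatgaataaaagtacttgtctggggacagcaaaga
Vcam1: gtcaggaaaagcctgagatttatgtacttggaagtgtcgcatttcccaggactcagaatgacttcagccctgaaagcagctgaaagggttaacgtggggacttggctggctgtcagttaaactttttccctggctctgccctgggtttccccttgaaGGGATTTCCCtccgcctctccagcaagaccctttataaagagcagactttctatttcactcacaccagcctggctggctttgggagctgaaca

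Junction and surface genes were the first role. Of 9 measured, 6, 6, 4 and 5 fell and 0 rose after CNF1, CNF2, CNF3 and MWCNT. Array values are given below in the order of days 1, 3, 7, 30 and 90. Plvap encodes the protein of the diaphragms that span endothelial pores and caveolae. Plvap stood at -0.66, -1.97, -1.09, -0.57 and 0.16 in CNF1 lungs, against 0.03, -0.13, 0.15, 0.04 and 0.63 in their vehicle lungs. In CNF2 lungs Plvap stood at -0.49, -1.08, -0.51, 0.04 and -0.12, against 0.14, 0.05, 0.07, 0.40 and 0.61 in vehicle lungs. The lowest Plvap values of both materials came on day 3, and in CNF1 the exposed day 90 array reached the vehicle range. With CNF3, Plvap values were -0.80, -0.66, -0.58, -0.26 and -0.25, against 0.24, 0.28, -0.01, 0.22 and 0.48 in vehicle lungs. After MWCNT, Plvap values were -0.47, -0.21, -0.63, -0.27 and 0.10, against 0.16, 0.16, 0.16, 0.28 and 0.56 in vehicle lungs. Exposed and vehicle arrays of Plvap did not overlap after CNF2, CNF3 or MWCNT. The Plvap effect was -0.97, -0.68, -0.75 and -0.56 after CNF1, CNF2, CNF3 and MWCNT (SE 0.13 each, adjusted p = 1.68e-07, 0.000118, 6.35e-05 and 0.00177), and the call held in every alternative setting.

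Emcn encodes endomucin, a mucin-like surface glycoprotein of capillary and venous endothelium. Emcn stood at -0.33, -0.72, -0.70, -0.21 and -0.34 in CNF1 lungs, against 0.43, 0.11, 0.20, 0.08 and -0.06 in their vehicle lungs. In CNF2 lungs Emcn stood at 0.43, -0.33, -0.06, -0.17 and -0.38, against 0.41, 0.30, 0.32, 0.22 and -0.02 in vehicle lungs. All 5 exposed CNF1 arrays lay below all 5 vehicle arrays, whereas with CNF2 the day 1 value was 0.43, beside 0.41 in vehicle. With CNF3, Emcn values were 0.19, 0.22, -0.06, -0.22 and -0.48, against 0.40, 0.32, 0.19, 0.28 and -0.14 in vehicle lungs. After MWCNT, Emcn values were 0.14, 0.16, 0.19, -0.06 and -0.57, against 0.47, 0.61, 0.35, 0.28 and -0.19 in vehicle lungs. In these 2 materials each exposed array was below its own vehicle, and Emcn was lower on day 90 than on day 1 in exposed and vehicle lungs alike. The Emcn effect was -0.61, -0.35, -0.28 and -0.33 after CNF1, CNF2, CNF3 and MWCNT (SE 0.10 each, adjusted p = 2.22e-06, 0.00499, 0.0336 and 0.0104). The CNF3 call ended in 7 of 12 alternatives, among them without day 1, 7, 30 or 90, and the MWCNT call ended without day 30.

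Among the other junction genes, Icam2, an adhesion molecule that resting endothelium carries, fell by 0.80, 0.67, 0.57 and 0.38 after CNF1, CNF2, CNF3 and MWCNT, and the MWCNT call ended in 5 of 12 alternatives. Cldn5, the claudin of endothelial tight junctions, gave -0.46, -0.45 and -0.48 after CNF1, CNF2 and MWCNT, all called, and -0.17 after CNF3, which was not. Robo4, a guidance receptor that steadies vessels, was called lower after the 3 CNFs (-0.55, -0.40 and -0.34). Ptprb, the phosphatase VE-PTP that acts on VE-cadherin and TIE2, was called lower after CNF1, CNF2 and MWCNT (-0.37, -0.39 and -0.38). The genes by which endothelium is most often recognised did not pass. Cdh5 (VE-cadherin) gave -0.03, -0.03, -0.15 and -0.27 after CNF1, CNF2, CNF3 and MWCNT. Pecam1 (CD31, which platelets and leukocytes carry too) gave 0.18, -0.05, 0.29 and -0.22. The 95% interval for Cdh5 ran from -0.28 to 0.22 after CNF1 and from -0.52 to -0.02 after MWCNT. Esam, a junctional immunoglobulin-like molecule, lay between -0.22 and -0.08 and was not called. The Ptprb calls ended without day 3 after CNF1 and without day 7, 30 or 90 after MWCNT, the Robo4 call after CNF3 without day 1, 7 or 30, and the Icam2 call after MWCNT without day 1, 7 or 90.

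Of 7 receptors for growth factors and lipids, 5, 6, 4 and 6 fell and 0 rose after CNF1, CNF2, CNF3 and MWCNT. Eng encodes endoglin, a co-receptor through which endothelium senses BMP9 and TGF-beta. Eng stood at -1.13, -1.74, -1.27, -0.62 and -0.02 in CNF1 lungs, against -0.14, -0.05, -0.11, 0.11 and 0.38 in their vehicle lungs. In CNF2 lungs Eng stood at -0.40, -0.77, -0.48, 0.01 and -0.15, against 0.11, 0.07, 0.08, 0.28 and 0.42 in vehicle lungs. In CNF1 lungs Eng was lowest on day 3 and nearest to vehicle on day 90. With CNF3, Eng values were -0.49, -0.46, -0.59, -0.17 and -0.40, against 0.22, 0.18, 0.13, 0.25 and 0.42 in vehicle lungs. After MWCNT, Eng values were -0.44, -0.29, -0.54, -0.23 and -0.31, against 0.04, 0.04, 0.13, 0.18 and 0.34 in vehicle lungs. After CNF2, CNF3 and MWCNT every exposed array lay below every vehicle array. The Eng effect was -0.996, -0.55, -0.66 and -0.51 after CNF1, CNF2, CNF3 and MWCNT (SE 0.12 each, adjusted p = 1.4e-08, 0.000506, 0.000103 and 0.00182), a call that held in every alternative.

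Flt4 encodes VEGFR3, the receptor for VEGF-C that is best known from lymphatic endothelium and is also carried by growing blood vessels. Flt4 stood at -0.83, -1.42, -1.14, -0.64 and -0.34 in CNF1 lungs, against -0.20, -0.68, -0.41, -0.26 and 0.30 in their vehicle lungs. In CNF2 lungs Flt4 stood at -0.73, -0.84, -0.49, -0.21 and -0.31, against -0.07, -0.10, -0.05, 0.16 and 0.06 in vehicle lungs. The CNF2 groups did not overlap, while in CNF1 the exposed days 30 and 90 arrays lay within the vehicle range. With CNF3, Flt4 values were -0.40, 0.26, 0.19, -0.04 and -0.32, against 0.03, 0.16, 0.21, 0.29 and 0.04 in vehicle lungs. After MWCNT, Flt4 values were -0.46, -0.38, -0.58, -0.49 and -0.15, against -0.04, -0.04, -0.03, 0.04 and 0.09 in vehicle lungs. The MWCNT groups were also apart, and the CNF3 groups overlapped. The Flt4 effect was -0.62, -0.52, -0.21 and -0.42 after CNF1, CNF2, CNF3 and MWCNT (SE 0.11 each, adjusted p = 1.01e-05, 0.000272, 0.177 and 0.00405).

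Kdr, the main VEGF receptor of blood vessels (VEGFR2), fell by 0.49, 0.38, 0.36 and 0.27 after CNF1, CNF2, CNF3 and MWCNT. Tek (TIE2, the angiopoietin receptor) fell by 0.54, 0.55 and 0.52 after CNF1, CNF2 and MWCNT and stood at -0.27, not called, after CNF3. Its relative Tie1 was called lower after all 4 materials, between -0.38 and -0.30. Flt1, the VEGF decoy receptor VEGFR1, was called lower after CNF2, CNF3 and MWCNT (-0.22, -0.25 and -0.43). Its 2 probes gave -0.34 and 0.05 after CNF1, with r = 0.59 over the 80 arrays. They gave -0.42 and -0.025 after CNF2, -0.328 and -0.175 after CNF3, and -0.449 and -0.418 after MWCNT. Fitted by probe, the first passed after each material and the second after MWCNT only. S1pr1, the sphingosine 1-phosphate receptor that tightens junctions, was called after no material (0.09, -0.30, 0.10 and -0.48). Across the 80 arrays its values followed the mean of the control spots more than those of any other member (r = 0.58). Most members ran the other way, with a median r of -0.20 over the 38, beside 0.17 over all genes, and the lowest were Apln (-0.49), Aplnr (-0.46), Cldn5 (-0.43), and Sox17 and Sox18 (-0.40 each). The part of the spots' shift in the effects was not tested beyond the fit with 3 control-spot factors. Without 1 day the calls ended for Kdr after CNF3 (day 1) and MWCNT (day 1, 7, 30 or 90), Tek after CNF1 (day 3), Tie1 after CNF3 (day 1), and Flt1 after CNF2 (day 7, 30 or 90) and CNF3 (day 3 or 30). With the lowest-numbered probe alone, Tek was called after none of CNF1, CNF2 and MWCNT. Fitted by probe, the first Tek probe gave -0.307, -0.402, -0.014 and -0.4 after CNF1, CNF2, CNF3 and MWCNT and passed after none. The second gave -0.768, -0.706, -0.524 and -0.64 and passed after all 4, with r = 0.69 between the probes.

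**Figure D2:**
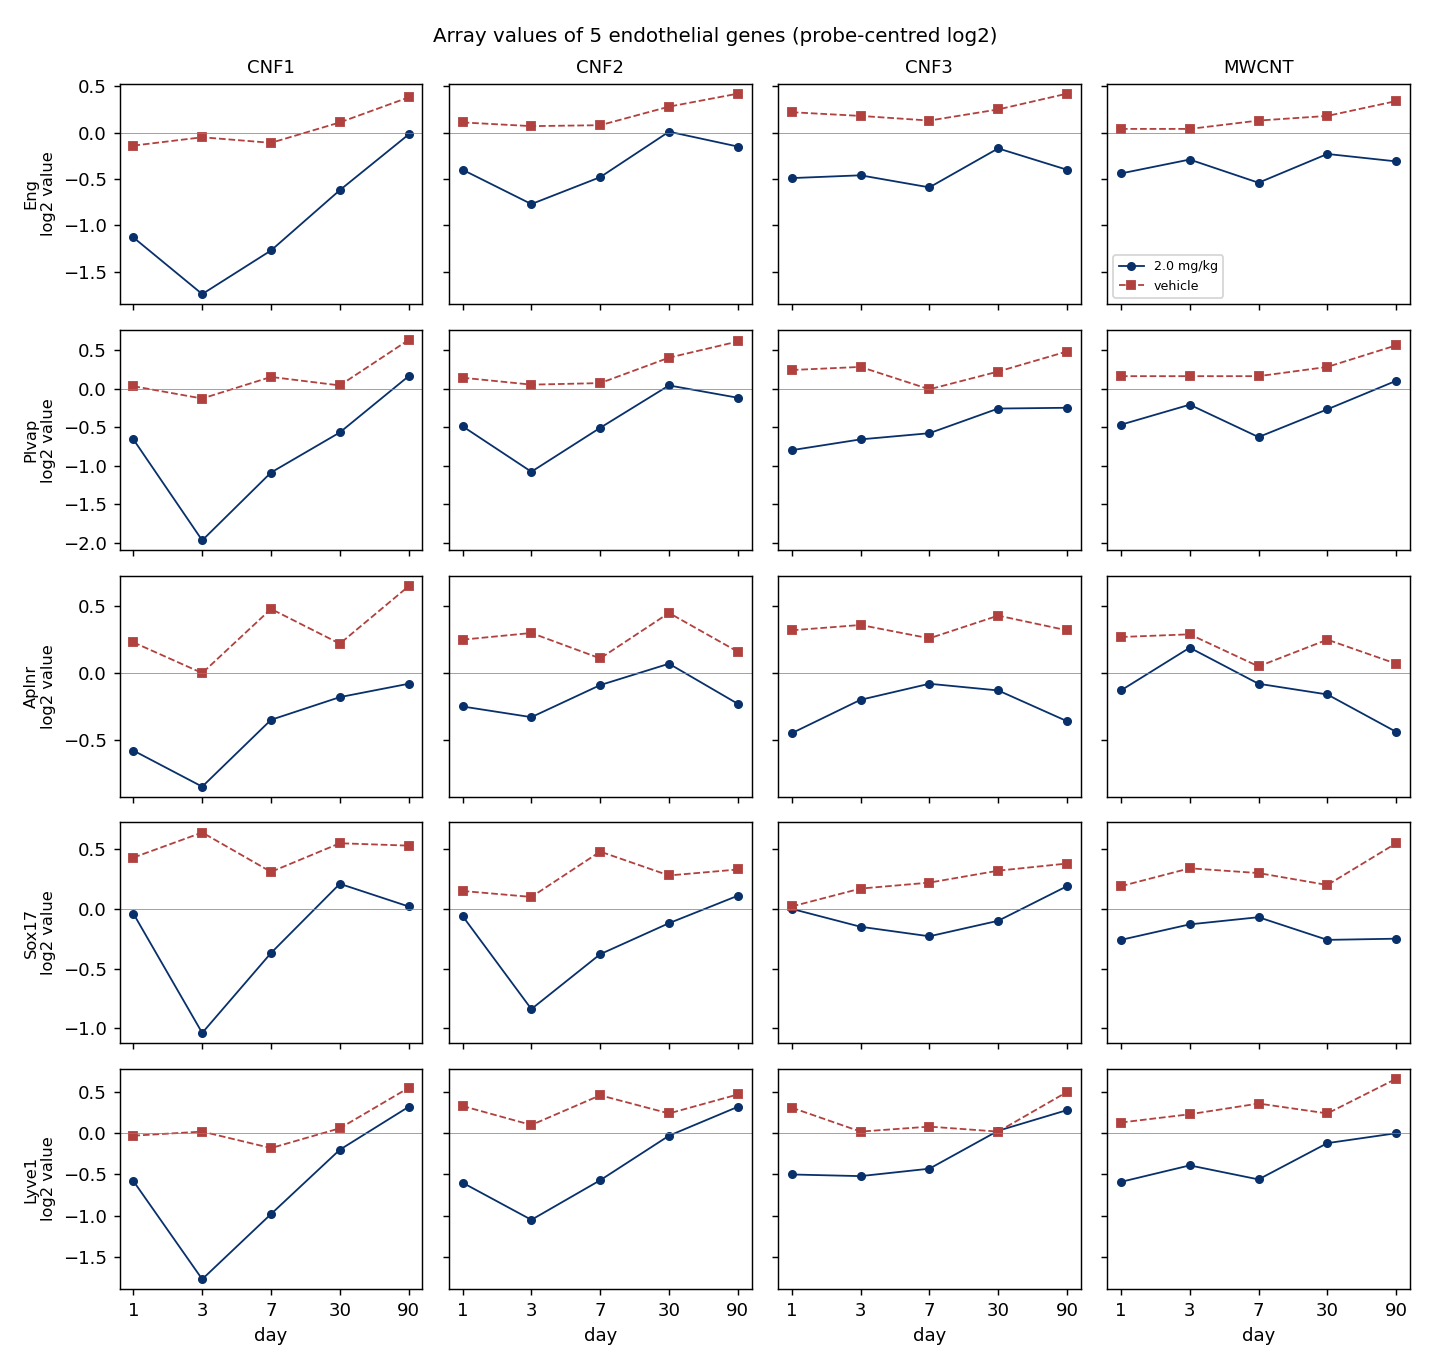
Deposited log2 values of Eng, Plvap, Aplnr, Sox17 and Lyve1 on each day (x axis, days not to scale) for 2.0 mg/kg (circles) and vehicle (squares), 1 array per point, with 1 column per material. The exposed line lies below the vehicle line in nearly every panel and dips on day 3 in CNF1 and CNF2, while in MWCNT it shows no such dip.

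Of 6 transcription factor genes, 4, 4, 1 and 5 fell and 0 rose after CNF1, CNF2, CNF3 and MWCNT. Fli1 encodes an ETS factor of endothelium, megakaryocytes and lymphocytes. Fli1 stood at -0.29, -0.46, -0.54, 0.04 and 0.27 in CNF1 lungs, against 0.02, -0.09, 0, -0.05 and 0.19 in their vehicle lungs. In CNF2 lungs Fli1 stood at -0.33, -0.35, -0.24, 0.01 and -0.02, against 0.13, 0.07, 0.05, 0.30 and 0.39 in vehicle lungs. CNF2 arrays were all below vehicle, and in CNF1 the days 30 and 90 values were above their own vehicles. With CNF3, Fli1 values were -0.07, -0.16, -0.11, 0.24 and 0.22, against 0.09, 0.06, 0.08, 0.24 and 0.10 in vehicle lungs. After MWCNT, Fli1 values were -0.36, -0.29, -0.34, -0.13 and -0.16, against 0.10, -0.01, 0.03, 0.27 and 0.43 in vehicle lungs. The MWCNT groups did not overlap and the CNF3 groups did. The Fli1 effect was -0.21, -0.37, -0.09 and -0.42 after CNF1, CNF2, CNF3 and MWCNT (SE 0.07 each, adjusted p = 0.0135, 8.69e-05, 0.424 and 2.89e-05). The CNF1 call ended in 7 of 12 alternatives, among them without day 1, 3 or 7, and those of CNF2 and MWCNT in none.

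Sox17 encodes a SOXF factor of arterial and capillary endothelium. Sox17 stood at -0.04, -1.04, -0.37, 0.21 and 0.02 in CNF1 lungs, against 0.43, 0.64, 0.31, 0.55 and 0.53 in their vehicle lungs. In CNF2 lungs Sox17 stood at -0.06, -0.84, -0.38, -0.12 and 0.11, against 0.15, 0.10, 0.48, 0.28 and 0.33 in vehicle lungs. In CNF1 the 2 groups were apart, and in CNF2 only the exposed day 90 array (0.11) reached the lowest vehicle value (0.10). With CNF3, Sox17 values were 0, -0.15, -0.23, -0.10 and 0.19, against 0.02, 0.17, 0.22, 0.32 and 0.38 in vehicle lungs. After MWCNT, Sox17 values were -0.26, -0.13, -0.07, -0.26 and -0.25, against 0.19, 0.34, 0.30, 0.20 and 0.55 in vehicle lungs. MWCNT arrays were apart too and held a nearly level course over the 5 days. The Sox17 effect was -0.74, -0.53, -0.28 and -0.51 after CNF1, CNF2, CNF3 and MWCNT (SE 0.13 each, adjusted p = 1.09e-05, 0.00156, 0.122 and 0.0032). Sox18, a relative that also marks lymphatic precursors, fell by 0.66, 0.53, 0.57 and 0.39 after CNF1, CNF2, CNF3 and MWCNT, and the MWCNT call ended in 7 of 12 alternatives. Sox7, the third SOXF gene, was called lower after MWCNT (-0.47), but its 2 probes had opposite signs in the 3 CNFs and r = -0.14 over the arrays. Erg, the ETS factor that maintains endothelial identity, was called lower after CNF1, CNF2 and MWCNT (-0.57, -0.37 and -0.32) and stood at -0.26 after CNF3, with an adjusted p of 0.0622. Prox1, the lymphatic fate factor, had the widest errors of the members (SE 0.41) and was not called. Without 1 day the calls ended for Sox18 after CNF2 and CNF3 (day 1) and MWCNT (day 1, 7, 30 or 90), Erg after MWCNT (day 7, 30 or 90) and Sox7 after MWCNT (day 30).

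Of 9 genes for vasoactive peptides, their receptors and enzymes, 6, 5, 6 and 6 fell and 0 rose after CNF1, CNF2, CNF3 and MWCNT. Aplnr encodes the apelin receptor, which is carried by capillary and venous endothelium. Aplnr stood at -0.58, -0.85, -0.35, -0.18 and -0.08 in CNF1 lungs, against 0.23, 0, 0.48, 0.22 and 0.65 in their vehicle lungs. In CNF2 lungs Aplnr stood at -0.25, -0.33, -0.09, 0.07 and -0.23, against 0.25, 0.30, 0.11, 0.45 and 0.16 in vehicle lungs. Both materials kept all exposed arrays below all vehicle arrays. With CNF3, Aplnr values were -0.45, -0.20, -0.08, -0.13 and -0.36, against 0.32, 0.36, 0.26, 0.43 and 0.32 in vehicle lungs. After MWCNT, Aplnr values were -0.13, 0.19, -0.08, -0.16 and -0.44, against 0.27, 0.29, 0.05, 0.25 and 0.07 in vehicle lungs. The CNF3 groups were apart as well, while after MWCNT the day 3 array lay within the vehicle range. The Aplnr effect was -0.72, -0.42, -0.58 and -0.31 after CNF1, CNF2, CNF3 and MWCNT (SE 0.08 each, adjusted p = 4.96e-09, 0.000124, 1.33e-06 and 0.00507), and the call held in every alternative.

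Apln encodes apelin, the ligand of that receptor, which tip and capillary cells release. Apln stood at -0.96, -1.30, -0.40, -0.02 and 0.46 in CNF1 lungs, against 0.04, 0.40, 0.41, 0.66 and 0.52 in their vehicle lungs. In CNF2 lungs Apln stood at -0.89, -0.70, -0.31, -0.11 and 0.18, against -0.21, 0.28, 0.42, 0.34 and 0.50 in vehicle lungs. In CNF1 only the exposed day 90 array lay within the vehicle range, and in CNF2 those of days 30 and 90 did. With CNF3, Apln values were -0.84, -0.58, -0.11, -0.14 and 0.20, against 0.16, 0.02, 0.28, 0.30 and 0.68 in vehicle lungs. After MWCNT, Apln values were -0.51, -0.40, -0.08, -0.11 and -0.15, against 0.17, -0.03, 0.44, 0.41 and 0.42 in vehicle lungs. Every exposed array was below its own vehicle in the 4 materials, and the MWCNT groups did not overlap. The Apln effect was -0.85, -0.63, -0.58 and -0.53 after CNF1, CNF2, CNF3 and MWCNT (SE 0.12 each, adjusted p = 3.63e-07, 9.88e-05, 0.000566 and 0.00123), called in every alternative. Its 2 probes moved together, with r = 0.97.

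Edn1 encodes endothelin 1, the vasoconstrictor of endothelium. Edn1 stood at 0.38, -0.60, -0.58, 0.02 and 0.05 in CNF1 lungs, against -0.15, -0.01, -0.17, 0.08 and 0.09 in their vehicle lungs. In CNF2 lungs Edn1 stood at 0.48, -0.33, -0.54, -0.04 and 0.19, against -0.11, -0.16, 0.12, 0.31 and 0.28 in vehicle lungs. Both materials were above vehicle on day 1 and below it on days 3 and 7. With CNF3, Edn1 values were 0.45, -0.47, -0.08, 0.42 and 0.21, against -0.24, 0.03, -0.14, -0.12 and 0.16 in vehicle lungs. After MWCNT, Edn1 values were -0.54, -0.47, -0.01, 0.40 and 0.13, against -0.30, -0.21, 0.06, 0.11 and -0.04 in vehicle lungs. CNF3 shared the day 1 value above vehicle, MWCNT did not, and the groups overlapped in all 4. The Edn1 effect was -0.12, -0.14, 0.17 and -0.02 after CNF1, CNF2, CNF3 and MWCNT (SE 0.13 each, adjusted p = 0.523, 0.434, 0.4 and 0.957). Ednrb, the endothelin B receptor, which clears endothelin and drives nitric oxide release, was called lower in every alternative, with effects of -0.77, -0.62, -0.59 and -0.58 after CNF1, CNF2, CNF3 and MWCNT.

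Ramp2, the partner that turns the calcitonin receptor-like protein into an adrenomedullin receptor, fell by 0.71, 0.47, 0.38 and 0.41 after CNF1, CNF2, CNF3 and MWCNT. Calcrl, which encodes the receptor-like protein itself, was not called (0.32, 0.12, 0.02 and -0.28). Car4, the membrane carbonic anhydrase of lung capillaries, fell by 0.45, 0.34, 0.39 and 0.31. Nos3, the endothelial nitric oxide synthase, was not called (between -0.18 and 0.02), while Nostrin, a protein that moves this enzyme inside the cell, was called lower after CNF1, CNF3 and MWCNT (-0.67, -0.45 and -0.36). The Nostrin calls after CNF3 and MWCNT ended in 3 and 7 of 12 alternatives. Fitted by probe, its first probe gave -1.005, -0.493, -0.579 and -0.419 after CNF1, CNF2, CNF3 and MWCNT and passed after the CNFs. The second gave -0.327, -0.159, -0.311 and -0.31 and passed after none, with r = 0.53 between the probes. Without 1 day the calls ended for Ramp2 after CNF3 (day 1, 7 or 30) and MWCNT (day 1 or 7), Car4 after MWCNT (day 7 or 30), and Nostrin after CNF3 (day 1 or 30) and MWCNT (day 1, 30 or 90).

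Of the 2 secreted factors, Egfl7 encodes an extracellular protein that endothelium lays down around growing vessels. Egfl7 stood at 0.29, -0.30, 0.14, 0.07 and 0.02 in CNF1 lungs, against 0.16, -0.02, 0.41, 0.13 and 0.30 in their vehicle lungs. In CNF2 lungs Egfl7 stood at -0.02, -0.20, -0.19, -0.31 and -0.27, against 0, 0.16, 0.04, 0.15 and 0.17 in vehicle lungs. The CNF2 groups did not overlap and the CNF1 groups did. With CNF3, Egfl7 values were 0.21, -0.12, 0.08, -0.16 and -0.15, against 0.29, 0.20, 0.19, 0.26 and 0.32 in vehicle lungs. After MWCNT, Egfl7 values were -0.01, -0.10, -0.29, -0.44 and -0.58, against 0.08, 0.01, 0.04, 0.12 and -0.06 in vehicle lungs. After MWCNT the exposed values stood further below vehicle on days 30 and 90 than on day 1. The Egfl7 effect was -0.15, -0.30, -0.28 and -0.32 after CNF1, CNF2, CNF3 and MWCNT (SE 0.09 each, adjusted p = 0.191, 0.0104, 0.0256 and 0.00897), and calls ended without day 30 after CNF2, without day 3, 7, 30 or 90 after CNF3 and without day 7, 30 or 90 after MWCNT.

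Vwf encodes von Willebrand factor, which endothelium and platelets store and which binds platelets to an injured wall. Vwf stood at 0.70, -0.21, 0.32, 0.29 and 0.05 in CNF1 lungs, against -0.07, -0.06, -0.04, 0.12 and 0.03 in their vehicle lungs. In CNF2 lungs Vwf stood at 0.49, 0.24, 0.12, -0.10 and -0.03, against 0.10, -0.10, 0.07, -0.08 and 0.09 in vehicle lungs. Day 1 was above vehicle in both. With CNF3, Vwf values were 0.31, 0.01, 0.28, -0.25 and -0.13, against -0.13, -0.06, -0.06, -0.26 and -0.08 in vehicle lungs. After MWCNT, Vwf values were 0.14, 0.12, 0.12, -0.21 and -0.39, against -0.07, -0.09, 0, -0.07 and 0.03 in vehicle lungs. The groups overlapped in each material, and the effect was 0.23, 0.13, 0.16 and -0.01 after CNF1, CNF2, CNF3 and MWCNT (SE 0.11 each, adjusted p = 0.0766, 0.391, 0.313 and 0.983). The 2 probes behind this mean had opposite signs in all 4 materials and r = -0.21 over the arrays. After CNF1 the first gave 0.69 (adjusted p = 0.0033) and the second -0.22 (adjusted p = 0.0336), so no direction is given for Vwf.

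The 4 measured genes of leukocyte adhesion did not move as a block, as the plot of their array values shows. Sele encodes E-selectin, which endothelium makes on demand when cytokines reach it. Sele stood at -0.02, 0.36, -0.73, 0.06 and -0.09 in CNF1 lungs, against -0.34, -0.01, -0.12, 0.25 and 0.40 in their vehicle lungs. In CNF2 lungs Sele stood at 0.99, 0.09, -0.15, -0.15 and -0.06, against -1.23, -0.44, -0.33, -0.23 and -0.45 in vehicle lungs. The CNF2 day 1 array stood 2.21 above its vehicle, and all 5 exposed CNF2 arrays lay above all 5 vehicle arrays. That day 1 vehicle array was the lowest of the 20 vehicle values of Sele. With CNF3, Sele values were 1.18, 0.01, 0.04, -0.30 and -0.39, against -0.53, -0.03, 0.57, 0.54 and 0.32 in vehicle lungs. After MWCNT, Sele values were 0.63, 0.31, 0.29, -0.39 and -0.59, against -0.27, -0.50, -0.31, -0.45 and -0.65 in vehicle lungs. MWCNT lungs were above their own vehicle on each day with groups that overlapped, and CNF3 lungs were above it on days 1 and 3 only. The Sele effect was -0.12, 0.68, -0.06 and 0.49 after CNF1, CNF2, CNF3 and MWCNT (SE 0.25 each, adjusted p = 0.771, 0.0311, 0.892 and 0.167). Sele was the 1 member that rose after CNF2, and that call ended in 6 of 12 alternatives, including without day 1, 3 or 7.

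Selp encodes P-selectin, which endothelium and platelets keep in storage granules. Selp stood at -0.12, -0.93, -2.01, -0.64 and -1.31 in CNF1 lungs, against 0.28, 0.15, -0.43, 0.93 and -0.30 in their vehicle lungs. In CNF2 lungs Selp stood at 0.93, -0.67, -0.73, -0.84 and -0.95, against -0.73, -0.40, -0.15, -0.17 and -1.58 in vehicle lungs. In CNF1 each exposed array was below its own vehicle, and the groups overlapped, with vehicle values between -0.43 and 0.93. With CNF3, Selp values were 1.24, 0.99, -0.07, -0.42 and -1.04, against -0.79, 0.01, 0.72, 0.92 and -1.26 in vehicle lungs. After MWCNT, Selp values were -0.19, -0.46, 0.20, -0.69 and -1.65, against 0.14, 0.30, -0.43, -0.54 and -0.34 in vehicle lungs. CNF3 had the largest day 1 excess, 2.04 above vehicle, and lay below it on days 7 and 30. The Selp effect was -1.13, 0.16, 0.22 and -0.39 after CNF1, CNF2, CNF3 and MWCNT (SE 0.34 each, adjusted p = 0.00598, 0.745, 0.707 and 0.485), and the call for CNF1 held in every alternative.

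Icam1 encodes the ligand of leukocyte integrins, and alveolar type 1 cells carry it too. Icam1 stood at -0.20, -0.48, -0.24, -0.14 and 0.30 in CNF1 lungs, against 0.11, 0.19, 0.25, 0.19 and 0.36 in their vehicle lungs. In CNF2 lungs Icam1 stood at -0.15, -0.44, -0.32, 0.02 and -0.14, against -0.10, 0.08, -0.09, 0.17 and 0.04 in vehicle lungs. Every exposed array was below its own vehicle, with the largest gap on day 3. With CNF3, Icam1 values were -0.05, -0.29, -0.23, -0.10 and -0.09, against 0.04, -0.05, 0.02, 0.06 and 0.14 in vehicle lungs. After MWCNT, Icam1 values were -0.14, -0.08, -0.12, 0.07 and 0.12, against 0, 0.05, 0.06, 0.18 and 0.26 in vehicle lungs. CNF3 groups touched at -0.05 without overlapping, and the other groups overlapped. The Icam1 effect was -0.37, -0.22, -0.20 and -0.14 after CNF1, CNF2, CNF3 and MWCNT (SE 0.07 each, adjusted p = 1.85e-05, 0.00949, 0.0347 and 0.144). The CNF2 call ended without day 3 and the CNF3 call without any 1 of the 5 days.

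Vcam1 encodes the adhesion molecule for monocytes and lymphocytes. Vcam1 stood at 0.18, 0.16, -0.04, -0.20 and -0.14 in CNF1 lungs, against 0.04, 0.16, 0.23, 0.30 and -0.01 in their vehicle lungs. In CNF2 lungs Vcam1 stood at 0.36, 0.37, 0.02, -0.21 and -0.32, against -0.19, 0.06, 0.11, -0.05 and -0.16 in vehicle lungs. CNF2 arrays were above vehicle on days 1 and 3 and below it on days 7, 30 and 90. With CNF3, Vcam1 values were 0.43, -0.14, -0.08, -0.24 and -0.11, against 0.16, 0.09, 0.14, -0.09 and 0.23 in vehicle lungs. After MWCNT, Vcam1 values were 0.17, 0.08, 0.03, -0.06 and -0.37, against 0.14, 0.17, 0.07, 0.06 and -0.17 in vehicle lungs. The groups overlapped in every material. The Vcam1 effect was -0.15, 0.09, -0.13 and -0.09 after CNF1, CNF2, CNF3 and MWCNT (SE 0.09 each, adjusted p = 0.166, 0.449, 0.299 and 0.547).

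**Figure D3:**
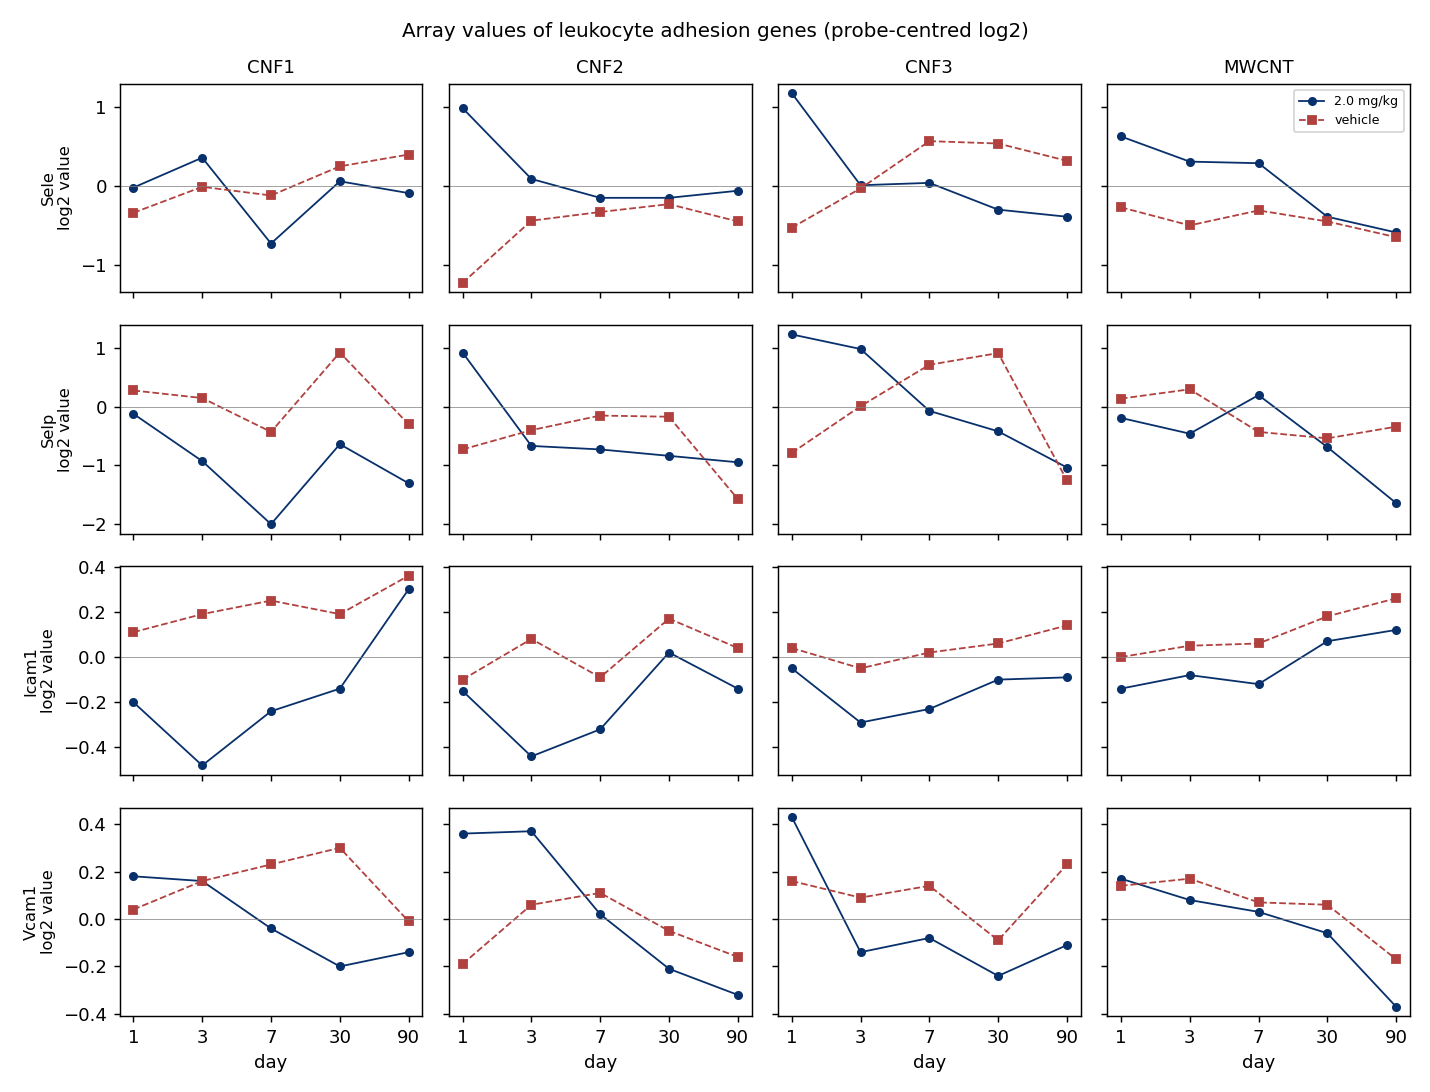
Deposited log2 values of Sele, Selp, Icam1 and Vcam1 by day for 2.0 mg/kg (circles) and vehicle (squares), 1 array per point, with 1 column per material. Sele is above vehicle on day 1 in all 4 materials and Selp in CNF2 and CNF3, while Icam1 is below its own vehicle at every point.

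Lyve1 encodes a hyaluronan receptor of lymphatic endothelium that some macrophages also carry. Lyve1 stood at -0.58, -1.77, -0.98, -0.20 and 0.32 in CNF1 lungs, against -0.03, 0.02, -0.18, 0.06 and 0.55 in their vehicle lungs. In CNF2 lungs Lyve1 stood at -0.60, -1.05, -0.57, -0.03 and 0.32, against 0.33, 0.10, 0.46, 0.24 and 0.47 in vehicle lungs. Day 3 was the lowest in both. With CNF3, Lyve1 values were -0.50, -0.52, -0.43, 0.03 and 0.28, against 0.31, 0.02, 0.08, 0.02 and 0.50 in vehicle lungs. After MWCNT, Lyve1 values were -0.59, -0.39, -0.56, -0.12 and 0, against 0.13, 0.23, 0.36, 0.24 and 0.66 in vehicle lungs. CNF3 met its vehicle on day 30, and only the MWCNT groups were wholly apart. The Lyve1 effect was -0.73, -0.71, -0.41 and -0.65 after CNF1, CNF2, CNF3 and MWCNT (SE 0.14 each, adjusted p = 3.25e-05, 0.000103, 0.0269 and 0.000448), and the CNF3 call ended without day 1 or 7. Its 2 probes had r = 0.87.

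For how the effects held over time, members lower than their own vehicle on all 5 days numbered 23, 23, 20 and 26 after CNF1, CNF2, CNF3 and MWCNT, where 14.3%, 16%, 15.9% and 15.6% of all genes did so. All 5 exposed arrays lay below all 5 vehicle arrays for 4, 15, 11 and 18 members, where 3.31%, 4.94%, 6.18% and 5.1% of all genes did so. The 4 after CNF1 were Emcn, Sox17, Aplnr and Nostrin. In CNF1 the median over the 38 members was -0.28, -0.87, -0.49, -0.22 and -0.18 on days 1, 3, 7, 30 and 90. In CNF2 it was -0.20, -0.62, -0.32, -0.32 and -0.27. The plot of medians by day shows that both had their lowest median on day 3 and that the median over all genes in CNF1 was then -0.12. CNF3 kept to a narrow course (-0.25, -0.28, -0.18, -0.32 and -0.31), and in MWCNT the medians were -0.28, -0.24, -0.37, -0.41 and -0.48, with the lowest on day 90.

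**Figure D4:**
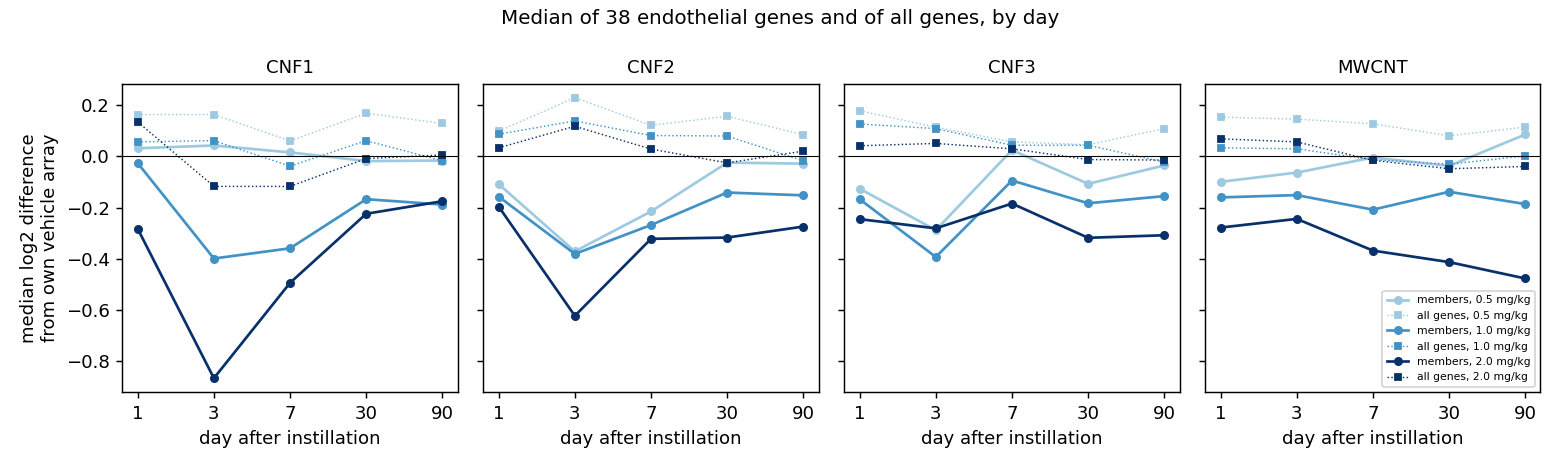
Median log2 difference from the own vehicle array over 38 endothelial genes (circles) and over all genes (squares) by day (x axis, not to scale) and dose (shade), 1 column per material. At 2.0 mg/kg the CNF1 and CNF2 members are lowest on day 3 (-0.87 and -0.62) and the MWCNT members on day 90 (-0.48).

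The difference between late days (30 and 90) and early days (1, 3 and 7) was tested in a fit with 1 effect for each period. After CNF1, 2 members were called lower late and 24 early, where 0.396% and 21.8% of all genes were. CNF2 had 2 late and 22 early (0.458% and 17.4% of all genes), and CNF3 had 3 late and 12 early (0.98% and 8.71%). After MWCNT 16 members were called lower late and 13 early (3.5% and 5.22%). Late effects rest on 2 days and early ones on 3 (median SE 0.174 and 0.142), so fewer late calls need not mean smaller effects. The member medians were -0.205 late and -0.569 early after CNF1, and -0.292 and -0.362 after CNF2. They were -0.311 late and -0.192 early after CNF3, and -0.467 and -0.298 after MWCNT. The late members after MWCNT included Cdh5 at -0.58 ± 0.19 (adjusted p = 0.0386), Esam at -0.42 and Nos3 at -0.42, which were not called over the 5 days.

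In the test of the difference itself, the CNF1 effect was higher late than early for 7 members, where 3.99% of all genes were called higher and 5.29% lower. They were Ednrb with a late minus early difference of 0.97 ± 0.20 (adjusted p = 0.0042), Apln with 0.80 ± 0.20 (adjusted p = 0.0114), Ramp2 with 0.88 ± 0.22 (adjusted p = 0.0115), Fli1 with 0.49 ± 0.12 (adjusted p = 0.0123), and Cldn5, Lyve1 and Icam2 with 0.59, 0.81 and 0.83. Ednrb stood at -0.19 late and -1.16 early against vehicle. After CNF2 1 member was called, Lyve1 with 0.83 ± 0.22 (adjusted p = 0.0413), where 0.911% of all genes were called higher and 0.892% lower. For CNF3 and MWCNT limma called 0 members (3 and 6 at an unadjusted p under 0.05), where 0.0816% and 0.0565% of all genes were called. Under quantile normalization, or with each material fitted alone, 0 members were called in CNF1 and in CNF2. The CNF1 count was 0 without day 30 or without day 90, 4 without day 7 and 15 without day 1, and the CNF2 count was 0 without any 1 of the 5 days.

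Differences between materials at 2.0 mg/kg were tested in 6 pairs. No member passed in any pair in limma, where 1.63% of all genes did for MWCNT minus CNF1 and between 0 and 0.484% for the other 5. At an unadjusted p under 0.05 there were 11, 0, 6, 4, 6 and 4 members for MWCNT minus CNF1, CNF2 and CNF3, CNF1 minus CNF2 and CNF3, and CNF2 minus CNF3. The smallest p for MWCNT minus CNF1 was that of Aplnr, whose effect was -0.31 after MWCNT and -0.72 after CNF1, a difference of 0.41 ± 0.12 (adjusted p = 0.0549). Eng differed by 0.49 ± 0.17 (adjusted p = 0.121) in that pair, and Fli1 by -0.33 ± 0.10 (adjusted p = 0.154) for MWCNT minus CNF3. Selp differed by -1.29 ± 0.48 (adjusted p = 0.532) for CNF1 minus CNF2, with a 95% interval of -2.25 to -0.32. For MWCNT minus CNF2 the interval for Eng was -0.30 to 0.39 and for Plvap -0.26 to 0.50. These intervals allow differences as large as several of the effects themselves, so the 4 materials cannot be called alike from these tests. Against the mean of the 4 vehicles of a day in place of the own vehicle, 10 members were called for MWCNT minus CNF1 and 10 for CNF1 minus CNF3. MWCNT minus CNF1 gave 1 member without day 3 and 2 without day 90. The counts at an unadjusted p, with the common control and without a day are given without the share of all genes. They do not set the members apart from other genes.

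At 0.5 mg/kg 7, 18, 4 and 5 members fell and 11, 2, 2 and 4 rose after CNF1, CNF2, CNF3 and MWCNT, where 11.4%, 12.9%, 5.54% and 7.44% of all genes were called lower and 36.1%, 37.7%, 23.8% and 30.4% higher. At 1.0 mg/kg 16, 16, 11 and 5 fell and 0, 4, 1 and 1 rose (16.2%, 12.3%, 6.09% and 7.54% of all genes lower, 20.6%, 27.6%, 18.7% and 8.46% higher). Array medians moved with dose: the vehicle arrays averaged -0.05 ± 0.042, those of 0.5 mg/kg 0.096 ± 0.03, those of 1.0 mg/kg 0.024 ± 0.094 and those of 2.0 mg/kg -0.063 ± 0.066 (SD, n = 20 arrays each). The median effect over all genes was up to 0.139 at 0.5 mg/kg, and relative to it the members had a median of -0.09 in CNF1, -0.34 in CNF2, -0.26 in CNF3 and -0.14 in MWCNT. With array medians subtracted, 14, 24, 18 and 12 members fell and 5, 1, 1 and 2 rose at 0.5 mg/kg. With 3 factors of the control spots as covariates, 0 or 1 member was called lower at 0.5 or 1.0 mg/kg, while at 2.0 mg/kg 23, 25, 17 and 27 were. The counts of these 2 settings are given without the share of all genes, so they do not set the members apart from other genes. The part of the spots' shift in the calls at the 2 lower doses was not tested further.

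In vehicle lungs the endothelial genes also differed between days. Over the 20 vehicle arrays, with material as a block, 12 of 38 members passed an F test over the 5 days (limma, 12 residual degrees of freedom), where 11.9% of all genes did. On day 90, 14 members were higher and 2 lower than on days 1 and 3, where 11.4% and 10.6% of all genes were. Eng averaged 0.39 ± 0.04 on day 90, against 0.06 ± 0.15 on day 1 and 0.06 ± 0.09 on day 3 (SD, n = 4 arrays each), a difference of 0.33 ± 0.04 (adjusted p = 9.65e-05). Ramp2 and Icam2 were higher on day 90 by 0.36 and 0.37, Plvap by 0.46 and Flt1 by 0.40. Emcn averaged -0.10 ± 0.08 on day 90, against 0.43 ± 0.03 on day 1 and 0.34 ± 0.21 on day 3, a difference of -0.48 ± 0.07 (adjusted p = 0.000165). Sox7, the other gene that was lower, differed by -0.38. Age and time after instillation cannot be told apart in these arrays, and without day 90 the F test called 0 members (8 at an unadjusted p under 0.05). Without the vehicle arrays of CNF1, CNF2, CNF3 or MWCNT it called 5, 1, 5 and 6, while the day 90 difference gave a count of 12 to 16.

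**Figure D5:**
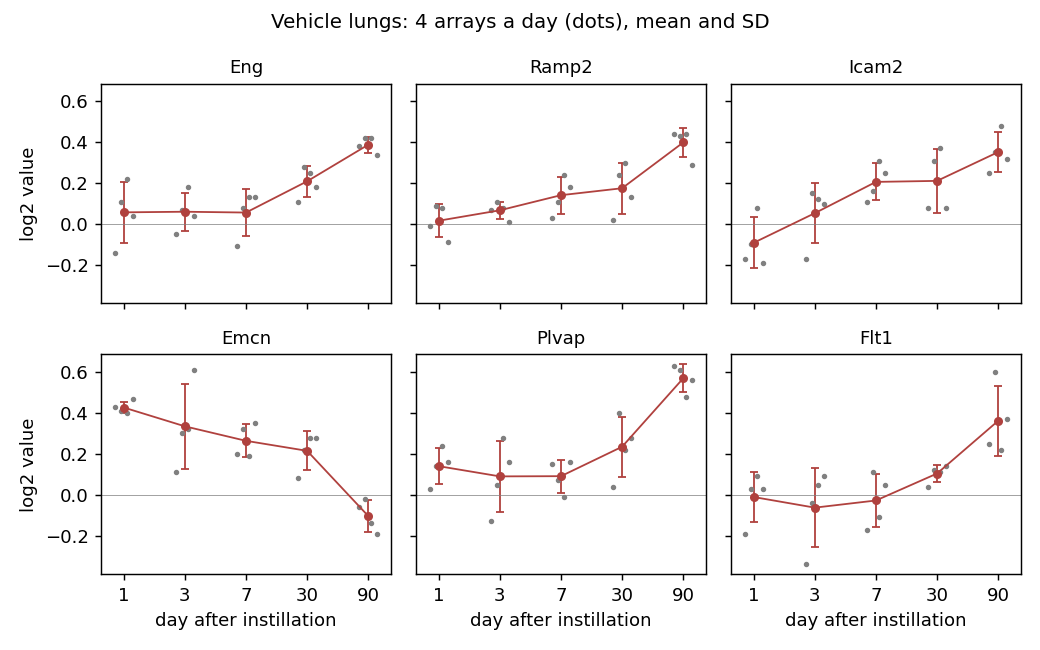
Deposited log2 values of 6 endothelial genes in vehicle lungs by day (x axis, not to scale), with dots for the 4 arrays of a day and lines for their mean with bars of 1 SD. Eng, Ramp2, Icam2, Plvap and Flt1 are highest on day 90 and Emcn is lowest then.

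How far members varied together was described by the correlation of each member's 20 differences at 2.0 mg/kg (4 materials on 5 days) with the median of the other members. The 20 points share vehicle and exposed arrays with every other member. By Pearson's r, Erg and Car4 were the most alike (0.87 each), followed by Ramp2 (0.85), Kdr and Tek (0.84 each) and Sox17 (0.83). By Spearman's rho the order was another, led by Cldn5 (0.67), Esam (0.66), Kdr (0.59) and S1pr1 (0.58). Car4 stood at 0.56, Erg at 0.49, Tek at 0.45 and Sox17 at 0.39. CNF1 on day 3 had the lowest member median of the 20 sets, and the coefficients were not taken without it. They were not taken over all genes either, so they do not set the members apart from other genes. Sele (r = 0.04, rho = 0.03) and Vcam1 (r = -0.11, rho = -0.06) were low by both coefficients, whereas Flt1 had r = -0.08 and rho = 0.28, and Robo4 r = 0.29 and rho = -0.06. In all 20 sets 17 members were lower than their own vehicle, where 4.54% of all genes were.

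Other genes of the pathways in which the members act showed the following at 2.0 mg/kg. The counts are to be read beside the shares of all genes called at that dose, given above. Of 9 measured genes of capillary endothelium, 6, 6, 5 and 6 fell and 0 rose after CNF1, CNF2, CNF3 and MWCNT. Gpihbp1, which anchors lipoprotein lipase in capillaries, gave -1.14, -1.01, -0.45 and -0.63, and Tmem100, an alveolar capillary gene downstream of BMP9, gave -1.08, -0.67, -0.76 and -0.68, all called. Cd93 (-0.44, -0.35, -0.27 and -0.29) and Cyp4b1, a lung P450 that club cells carry too (-1.07, -0.93, -0.71 and -0.72), were called after all 4 materials. Of 9 genes of endothelial BMP and TGF-beta signalling, 5, 6, 5 and 6 fell. Smad6, an inhibitory SMAD that BMP signalling induces, gave -1.07, -0.72, -0.81 and -0.50, Bmp6, a BMP ligand, gave -1.09, -0.73, -0.65 and -0.58 and Id3, another BMP target, gave -0.29, -0.30, -0.40 and -0.30, all called. Tgfbr2, the type II TGF-beta receptor, was the 1 that rose after each material (0.87, 0.70, 0.52 and 0.49).

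Among 6 genes of flow response and anticoagulation, 4, 5, 3 and 5 fell and 0 rose. Klf2 and Klf4 are factors that laminar flow induces. Klf2 gave -0.81, -0.40, -0.60 and -0.42, Klf4 gave -0.64, -0.34, -0.49 and -0.38 and Tfpi, the inhibitor of tissue factor, gave -0.76, -0.55, -0.46 and -0.37, all called. Plat, tissue plasminogen activator, was called after CNF1, CNF2 and MWCNT (-0.35, -0.41, -0.11 and -0.48 in the order of the 4 materials). Of 11 Notch and arterial genes, 7, 6, 2 and 6 fell and 0 rose. Unc5b, an arterial guidance receptor, was called after all 4 (-0.40, -0.40, -0.44 and -0.40). Hey1, a Notch target (-0.34, -0.64, -0.21 and -0.45), and Notch4, an endothelial Notch receptor (-0.30, -0.40, -0.11 and -0.30), were called after CNF1, CNF2 and MWCNT, and Bmx, an arterial kinase, after CNF1 and CNF2 (-0.38, -0.62, -0.23 and -0.27).

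Of 11 ligands, 4, 3, 2 and 4 fell and 2, 1, 2 and 1 rose. Vegfb, a ligand of VEGFR1, rose after all 4 materials (0.62, 0.66, 0.60 and 0.57), whereas the angiopoietins that act on TIE2 fell after all 4, Angpt1 with -0.31, -0.32, -0.39 and -0.42 and Angpt2 with -0.53, -0.50, -0.40 and -0.52. Sema3c, a semaphorin, was called higher after CNF1 and CNF3 (0.59, 0.29, 0.43 and 0.15). Of 7 lymphatic and venous genes, 4, 3, 3 and 4 fell and 1, 1, 1 and 0 rose. Mmrn1, multimerin 1, gave -1.004, -0.74, -0.62 and -0.83, all called, Reln, the secreted glycoprotein reelin, was called after CNF1, CNF3 and MWCNT (-0.35, -0.21, -0.28 and -0.34), and Nrp2, a VEGF-C co-receptor, was called higher after the 3 CNFs (0.82, 0.48, 0.45 and 0.29). Pdpn, which alveolar type 1 cells carry too and which stands in both lists, gave -0.41, -0.34, -0.23 and -0.26, not called after CNF3. Of 9 NF-kappaB targets and cytokines that act on endothelium, 7, 4, 2 and 5 rose and 0 fell. Ccl2, a chemokine for monocytes, gave 1.95, 2.58, 1.94 and 2.89, Birc3, an apoptosis inhibitor, gave 0.61, 0.74, 0.17 and 0.93, Nfkb2, an NF-kappaB subunit, gave 0.60, 0.54, 0.38 and 0.36 and Il1b, a cytokine, gave 0.35, 0.46, 0.16 and 0.97, of which Birc3 was called after CNF1, CNF2 and MWCNT, Nfkb2 after CNF1 and CNF2, and Il1b after MWCNT.

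Several of these calls rested on the setting. With quantile normalization the CNF1 calls ended for Hey1 (-0.15, adjusted p = 0.408 in limma), Plat (-0.18, adjusted p = 0.352), Notch4, Bmx, Angpt1, Id3 and Birc3 (0.38, adjusted p = 0.0702). Without day 3 the CNF1 values were -0.15 for Hey1, -0.15 for Notch4 and 0.32 for Birc3, all uncalled. With the lowest-numbered probe Nfkb2 stood at 0.07 after CNF1 (adjusted p = 0.54). The CNF3 call of Gpihbp1 held in 5 of 12 alternatives and that of Tgfbr2 in 7. After MWCNT the calls of Tgfbr2 and Tfpi held in 7, that of Klf2 in 8 and that of Pdpn in 5. The calls of Unc5b, Vegfb and Ccl2 after all 4 materials held in all 12. Up to 4 markers with the smallest p from each list of other lung cells below were counted too. With them, 37 of 51 calls held in every alternative after CNF1 and 29 of 42 after CNF2. After CNF3 15 of 36 did, and after MWCNT 20 of 40.

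Some markers of other lung cells were called as well at 2.0 mg/kg. The counts are to be read beside the shares of all genes called at that dose, given above. Several lie near those shares, such as those of pericyte and smooth muscle markers after CNF1, and are not read as a move of the cell type. All 7 measured alveolar type 1 markers fell after CNF1, CNF2 and MWCNT and 4 after CNF3. Aqp5 gave -0.72, -0.56, -0.37 and -0.36, Ager -0.61, -0.45, -0.29 and -0.31, Cav1, which endothelium carries too, -0.67, -0.59, -0.41 and -0.54, and Emp2 -0.38, -0.38, -0.24 and -0.23. Their median by day was -0.51, -1.02, -0.60, -0.04 and -0.04 in CNF1. The Emp2 call held in 5 of 12 alternatives after CNF3 and in 4 after MWCNT. Of 10 pericyte and smooth muscle markers 2, 1, 2 and 3 fell and 2, 1, 2 and 0 rose. Rgs5, a pericyte gene, fell after all 4 (-0.39, -0.30, -0.34 and -0.47), and Des, a muscle filament gene, rose after the 3 CNFs (0.81, 0.69, 0.61 and 0.13). Of 7 fibroblast markers 4, 4, 2 and 3 fell, among them Dcn (-1.09, -0.82, -1.10 and -0.88) and, after the CNFs, Inmt (-1.81, -1.53, -1.33 and -0.76).

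Of 8 macrophage and monocyte markers 4, 3, 3 and 4 rose and 2, 0, 0 and 0 fell after CNF1, CNF2, CNF3 and MWCNT. The lysosomal Cd68 gave 1.64, 1.70, 1.45 and 1.29 and the integrin gene Itgam 2.65, 2.54, 2.69 and 2.12. Msr1 gave 0.80, 0.91, 0.67 and 1.21, all called. The 2 that fell after CNF1 were Adgre1 (-0.49) and Csf1r (-0.44), and Mrc1 was called after no material. Of 8 neutrophil markers 2, 2, 0 and 1 fell and 0, 0, 0 and 3 rose, with S100a9 at -0.29, -0.31, -0.31 and 1.85. The 1 that fell after MWCNT was Ngp (-0.72). Of 6 natural killer markers 4, 1, 3 and 0 fell, with the receptor gene Ncr1 at -1.01, -0.53, -0.45 and 0.04. Of 3 red cell genes 2, 1, 0 and 0 fell, with the globin gene Hbb at -1.51, -0.62, -0.55 and -0.51. Of 5 platelet genes 2, 1, 0 and 0 fell and 1, Pf4, rose after each material (1.15, 1.35, 1.18 and 0.88). The part of these cells, and of blood left in the lung, in the endothelial values was not tested.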

How the data were processed

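Whole-lung RNA of 80 groups was hybridised, 1 array per group, to a 1-colour Agilent rat array. The authors deposited log2 signals, centred probe by probe. The log base is not given in the sources used here and was taken as 2. Per the submitters' processing notes, Agilent Feature Extraction 12.0.3.1 read the signals. The normalization is not given in the sources used here, and slide and scan date were not used here.

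Of 41103 probes, 91 were control spots and 20932 of the 41012 rat probes had 1 symbol, by accession (17415), current symbol (3113) or synonym (396) in RefSeq tables, with the platform's name kept for 8. Probes were averaged to 15924 genes, without a filter, since detection could not be read from centred values. limma 3.58.1 in R 4.3.3 (lmFit, eBayes, Benjamini-Hochberg over all genes, threshold 0.05) was fitted with 20 material-by-day terms and 12 dose effects, then with early and late effects, and on the 20 vehicle arrays. Tables and plots used Python 3.11.15, pandas 2.3.3, numpy 2.4.6 and matplotlib 3.10.9. The members, the other gene lists and the tests were chosen with earlier results of these data known. Every member was named. Array values were given for the 2 genes of each role with the smallest p (1 for the lymphatic role), all adhesion genes and Edn1. Each pathway list and the alveolar type 1 list named the 4 genes with the smallest p. The remaining lists of other lung cells named some of their 4 such genes, not always those with the smallest p. The macrophage and neutrophil lists also named genes that fell or were not called. The labels do not say that arrays are separate animals, so p-values measure only the spread between these arrays, which may be technical. Alternatives were array medians subtracted, quantile normalization, 1 probe per gene, the mean of the 4 vehicles as control, the 2.0 mg/kg and vehicle arrays alone, each material alone, 3 factors of the 15 control spots (95.2% of their variance), and each day left out. Tested on simulated data of 15924 genes, 87% of 2-fold and 99% of 4-fold changes were recovered for CNF1 at 2.0 mg/kg, and 67% and 88% for CNF1 late minus early. Wrong calls numbered 7 and 9 in these 2 comparisons. Most member effects were smaller than 2-fold, so these rates do not give the power for them.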

Additional observations from a re-analysis of the deposited data

Results flagged for a closer look

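The effect of 2.0 mg/kg differed between the late days (30 and 90) and the early days (1, 3 and 7) for 7 members, in 8 comparisons. This was limma's test of the difference itself, and each effect was higher late than early. After CNF1 the late minus early differences were 0.97 ± 0.20 for Ednrb (adjusted p = 0.0042), 0.88 ± 0.22 for Ramp2 (adjusted p = 0.012), 0.83 ± 0.25 for Icam2 (adjusted p = 0.032) and 0.81 ± 0.22 for Lyve1 (adjusted p = 0.019). Apln gave 0.80 ± 0.20 (adjusted p = 0.011), Cldn5 0.59 ± 0.16 (adjusted p = 0.018) and Fli1 0.49 ± 0.12 (adjusted p = 0.012). After CNF2 it was 0.83 ± 0.22 for Lyve1 (adjusted p = 0.041). The errors are SE over single arrays.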

How the results depend on the processing

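No paired analysis was possible because each group had 1 array and the labels' replicate numbers pair no arrays across groups. That concerns replicate numbers only, since every effect was already taken within material and day, and the common control is the setting without that matching. Of the 91 called effects of 2.0 mg/kg, 56 were called under every alternative, and no member's effect that was called changed sign. Of the 169 called effects of the genes chosen from the other lists, 101 were called under every alternative. Leaving out each day in turn gave 21 to 25 members lower after CNF1, 22 to 24 after CNF2, 9 to 15 after CNF3 (main 18) and 15 to 25 after MWCNT (main 24). With the 2.0 mg/kg and vehicle arrays alone, 9 members were lower after CNF3. The count of members higher was 1 in place of 0 after CNF1 with array medians subtracted, the lowest-numbered probe or the common control (0 to 2 without a day), 0 in place of 1 after CNF2 with the common control, the 2.0 mg/kg and vehicle arrays alone or each material alone (0 to 1 without a day), 1 after CNF3 with the lowest-numbered probe and 1 after MWCNT with each material alone.

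Late minus early in CNF1 (main 7) gave 0 under quantile normalization, 0 with each material alone, 2 with the 2.0 mg/kg and vehicle arrays alone, 4 with 3 control-spot factors and 0 to 15 without a day. In CNF2 (main 1) it gave 0 under each of these 4 settings, 0 with the lowest-numbered probe and 0 without any 1 day. With the common control 10 members were called for MWCNT minus CNF1 (0 to 2 without a day), 1 for MWCNT minus CNF3, 1 for CNF1 minus CNF2 and 10 for CNF1 minus CNF3, where the main count was 0. The share of all genes is not given beside these counts. Between vehicle days (main 12) the count was 6 with 3 control-spot factors, and 0 to 11 without a day or 1 material's vehicles, the second chosen after seeing the data. Where a setting changed a count, the cause was not tested. One array per group limits the precision of every effect, and signal over background could not be read from centred values.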
